A study of Macaca mulatta with 5 samples.

Results

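Cyclic nucleotide phosphodiesterases are the enzymes that hydrolyse the second messengers cAMP and cGMP and so end their signals. The 10 genes PDE1A, PDE1C, PDE2A, PDE3A, PDE4B, PDE4C, PDE4D, PDE7B, PDE8B and PDE10A were chosen by name, and 8 of them were matched to 1 row each of the 5 count matrices, which hold 21761 genes. Of these, 7 were matched by the symbol in the files, and PDE4C was matched by its identifier. PDE2A and PDE8B were not matched and were not analysed here. Among the matched genes, PDE1A is ENSMMUG00000001163, PDE1C is ENSMMUG00000001625, PDE3A is ENSMMUG00000008269, PDE4B is ENSMMUG00000007490, PDE4C is ENSMMUG00000005028, PDE4D is ENSMMUG00000012132, PDE7B is ENSMMUG00000003708, and PDE10A is ENSMMUG00000023614. No base sequences or coordinates of these genes were used here.

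Adenylyl cyclases make cAMP and guanylyl cyclases make cGMP, which act on protein kinases A and G, on exchange factors and on cyclic nucleotide-gated channels. The phosphodiesterases differ in substrate and in what controls them. PDE1A and PDE1C hydrolyse both nucleotides and are switched on by calcium and calmodulin. PDE3A hydrolyses cAMP and is held back by cGMP. PDE4B, PDE4C and PDE4D are specific for cAMP and are the targets of rolipram, and PDE7B is a rolipram-insensitive cAMP enzyme. PDE10A hydrolyses both nucleotides and is known as the dominant phosphodiesterase of the projection neurons of the striatum.

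RNA of single nuclei was measured with the 10x Genomics 3' V3 kit in frozen claustrum from 2 healthy male rhesus macaques (Macaca mulatta) that had received no treatment. The claustrum is a layer of mostly excitatory neurons that lies beside the putamen and under the insular cortex. The first animal was 18 months old and gave 3 libraries, and the second was 17 months old and gave 2 libraries. Each age is therefore 1 animal, so that animal and age cannot be told apart. Libraries of 1 animal share its tissue, and p-values measure the spread between libraries of the same animals, which may be technical. The libraries held 6659 to 9540 barcodes and 47512670 to 70896967 UMIs (unique molecular identifiers, 1 per captured RNA molecule), with a median of 2976 to 3485 UMIs per barcode. Pairs of libraries shared 11 to 39 barcodes, at most 0.487% of the smaller library. After filtering, 37091 nuclei were kept. Values per library are given for libraries 1 to 3 of the 18-month animal and then libraries 1 and 2 of the 17-month animal.

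Nuclei were clustered and the clusters named by marker genes, with none of the phosphodiesterases among the genes used for either step. This gave 5078 claustrum-like and 3802 other excitatory nuclei, 2727 inhibitory nuclei outside the striatum, 1843 striatal projection neuron-like nuclei, 14506 oligodendrocyte-like nuclei, 2061 nuclei like oligodendrocyte precursor cells (OPC), 1181 astrocyte-like and 2827 microglia-like nuclei. Smaller classes were endothelial-like (551 nuclei), mural-like (169) and committed oligodendrocyte precursor-like (147). A cluster of 1737 nuclei of low depth was left unnamed and stayed out of the comparisons. The claustrum label of the tissue was checked against its markers: NR4A2 averaged 251 ± 26.8 CPM in claustrum-like nuclei and 37.5 ± 3.999 CPM in other excitatory nuclei, and GNB4 averaged 201 ± 29.4 CPM and 28.6 ± 6.55 CPM in the same order of classes (SD, n = 5 libraries). The tissue also held striatal nuclei, with RGS9 at 1039 ± 124 CPM in striatal and 22.2 ± 3.54 CPM in excitatory nuclei. The markers served to name the classes, so these values describe the naming.

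Levels are given as CPM, a gene's share of all counts in the nuclei of a class in 1 library scaled to 1000000, and differences come from edgeR's quasi-likelihood test on the same summed counts. A difference between classes was called at an adjusted p under 0.05 over all genes tested together with a log2 fold change of at least 1 in size, and a difference between animals at an adjusted p under 0.05. The p-values between clusters may be too small, because a cluster drawn from other genes can also sort genes that vary with them. Levels were not compared between genes, because gene length was not used here. Neuronal markers gave counts in other classes, as free RNA in droplet data can: SLC17A7, the vesicular glutamate transporter of excitatory neurons, lay at 43.1 to 80.3% of its excitatory level in oligodendrocyte-like nuclei and at 30.2 to 68.2% in OPC-like nuclei. GAD1, an inhibitory marker, lay at 0.634 to 1.26% of its inhibitory level in excitatory nuclei. Such shares differed between genes, so no common background was taken from them, and the part of free RNA in the levels below was not tested.

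**Figure D1:**
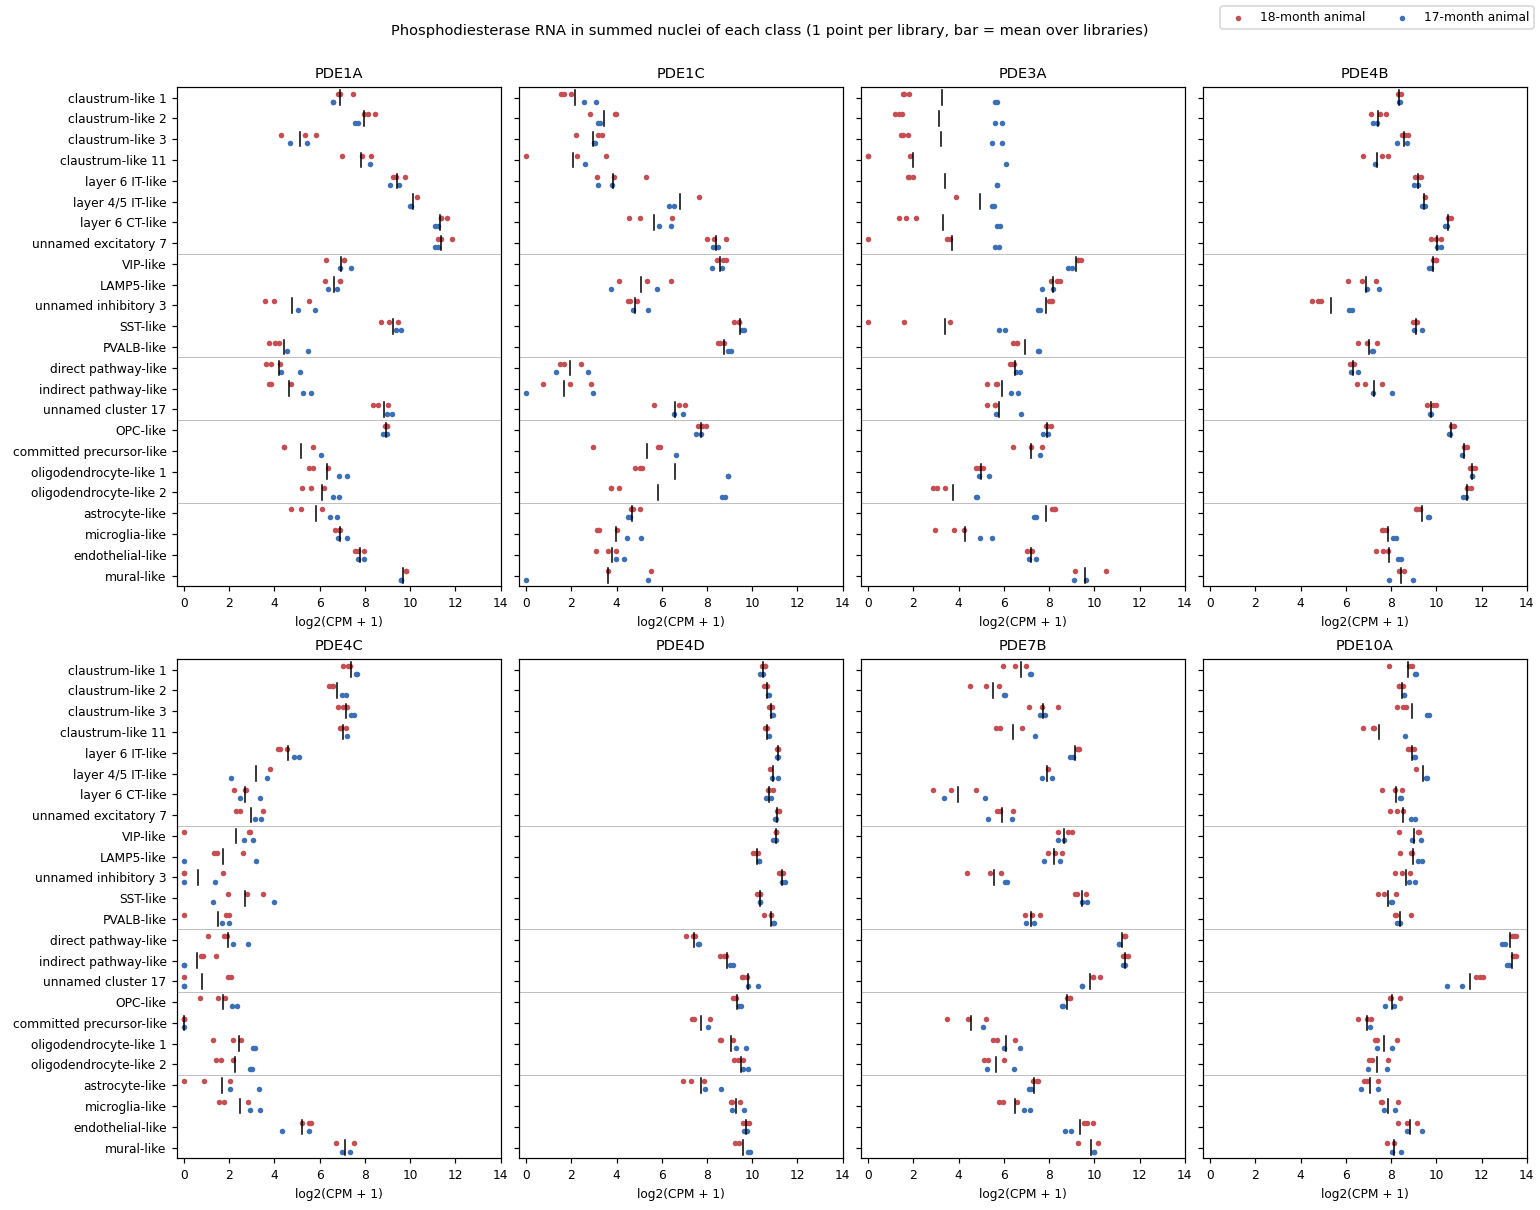
Levels of the 8 phosphodiesterases in 24 classes and clusters, as log2(CPM + 1), with 1 point per library, the 18-month animal in red and the 17-month animal in blue, and a bar at the mean. PDE10A and PDE7B are highest in the direct and indirect pathway-like nuclei and PDE4B in the oligodendrocyte-like nuclei, PDE4C is high in the claustrum-like clusters and in mural-like nuclei, and the animals separate for PDE1C in oligodendrocyte-like nuclei and for PDE3A in excitatory nuclei.

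Claustrum-like nuclei differed from the other excitatory nuclei in 5 of the 8 genes, with PDE4C higher and PDE1A, PDE1C, PDE4B and PDE7B lower. Over all 11088 genes tested in that comparison, 8.02% were called (3.42% higher and 4.60% lower). The median log2 fold change of the 8 genes was -0.84, beside 0.01 over all genes tested. The nuclei of the striatum carried PDE10A and PDE7B at far higher levels than any other named class, and 7 of the 8 genes differed between striatal and inhibitory nuclei, where 23.1% of all tested genes passed the call (10.7% higher and 12.3% lower). PDE4B was highest in the oligodendrocyte lineage. Of the 69 differences called between cell classes, 68 had the same sign within both animals, and the exception was PDE1C in oligodendrocyte-like nuclei. The calls were made on these same libraries of both animals, so the count is a description and not a separate check.

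**Figure D2:**
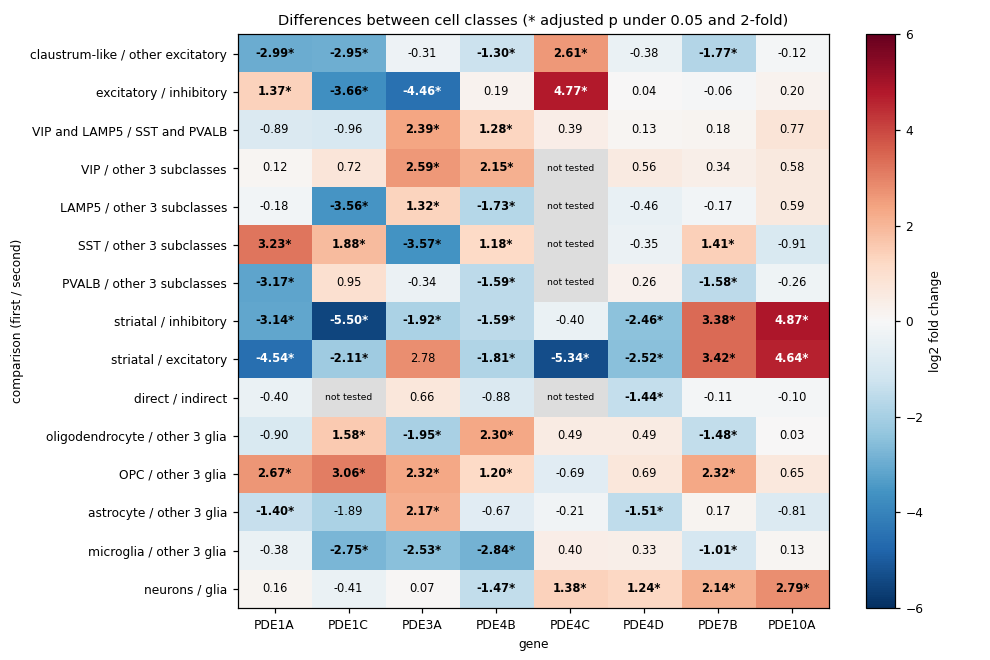
Log2 fold changes of the 8 phosphodiesterases (columns) in 15 comparisons of cell classes (rows, first class over second class), coloured red for higher and blue for lower in the first class. An asterisk marks an adjusted p under 0.05 with a change of at least 2-fold, and grey cells were not tested because of low counts. The highest value is 4.87, for PDE10A in striatal over inhibitory nuclei. PDE4C stands at 4.77 for excitatory over inhibitory nuclei, and PDE10A at 4.64 for striatal over excitatory nuclei.

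PDE1A, the first of the calcium- and calmodulin-dependent enzymes, was high in deep-layer cortical excitatory nuclei and low in claustrum-like nuclei. In claustrum-like nuclei it lay at 130.5, 136 and 168 CPM (18 months) and 122 and 108 CPM (17 months). In the other excitatory nuclei it lay at 921, 1152 and 1363 CPM (18 months) and 926 and 952 CPM (17 months). Every claustrum-like value was below every value of the other excitatory nuclei. The difference had a log2 fold change of -2.99 ± 0.0494 (SE; edgeR adjusted p = 7.41e-14; lower in 5 of 5 libraries).

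Within the excitatory neurons, PDE1A was highest in an unnamed excitatory cluster (cluster 7, 291 nuclei, scored between layer 6 corticothalamic and layer 6b markers), at 2673 ± 609 CPM (SD, n = 5), and in layer 6 corticothalamic-like nuclei, at 2596 ± 353 CPM (SD, n = 5). The ranges of these neighbours overlapped. Layer 4/5 intratelencephalic-like nuclei followed at 1123 ± 133 CPM (SD, n = 3), below the lowest corticothalamic-like library, and layer 6 intratelencephalic-like nuclei at 682 ± 129 CPM (SD, n = 5). The claustrum-like clusters differed among themselves. Cluster 2 held 250.2, 283 and 342 CPM (18 months) and 205 and 187 CPM (17 months). Cluster 3 held 18.3, 40.2 and 56.3 CPM (18 months) and 41.98 and 24.6 CPM (17 months). The values of cluster 2 all lay above those of cluster 3. Against the mean of the other claustrum-like clusters, cluster 2 had a log2 fold change of 1.89 ± 0.141 (SE; edgeR adjusted p = 1.45e-05; higher in 5 of 5 libraries) and cluster 3 a log2 fold change of -2.24 ± 0.171 (SE; edgeR adjusted p = 1.88e-05; lower in 5 of 5 libraries). In cluster 2, 2.73% of all tested genes passed the call (1.33% higher and 1.39% lower). In cluster 3, 2.39% of all tested genes passed the call (1.55% higher and 0.837% lower).

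Excitatory nuclei as a whole carried more PDE1A than inhibitory nuclei. The excitatory values were 404, 598 and 609.9 CPM (18 months) and 456 and 479.7 CPM (17 months). The inhibitory values were 155, 285 and 192 CPM (18 months) and 199.7 and 215 CPM (17 months). The groups did not overlap, and the log2 fold change was 1.37 ± 0.090 (SE; edgeR adjusted p = 8.62e-06). Claustrum-like nuclei, at 108 to 168 CPM, went the other way and lay below the inhibitory nuclei of the same library in every library. The other excitatory nuclei, at 921 to 1363 CPM, lay above all inhibitory values. Among inhibitory nuclei, those named for somatostatin (SST-like) were the high ones, at 616 ± 142 CPM (SD, n = 5), and the parvalbumin-named ones (PVALB-like) the low ones, at 22.3 ± 12.7 CPM (SD, n = 5). SST-like nuclei had a log2 fold change of 3.23 ± 0.177 (SE; edgeR adjusted p = 5.53e-09; higher in 5 of 5 libraries) against the mean of the other 3 subclasses, and PVALB-like nuclei had a log2 fold change of -3.17 ± 0.269 (SE; edgeR adjusted p = 5.74e-07; lower in 5 of 5 libraries). In striatal nuclei PDE1A was at 22.2 ± 11.6 CPM, with log2 fold changes of -3.14 ± 0.242 (SE; edgeR adjusted p = 0.000216) against inhibitory and -4.54 ± 0.333 (SE; edgeR adjusted p = 0.000322) against excitatory nuclei. The mural-like class, named by markers of pericytes, smooth muscle and fibroblasts, held 833 ± 69.5 CPM in its 4 libraries with at least 20 nuclei.

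PDE1C, the second calcium-dependent enzyme, was higher in inhibitory than in excitatory nuclei and highest, of the named classes, in the SST-like subclass. Excitatory nuclei held 11.99, 37.3 and 35.6 CPM (18 months) and 16.4 and 31.97 CPM (17 months). Inhibitory nuclei held 298, 367 and 310.4 CPM (18 months) and 349 and 332 CPM (17 months). Excitatory values were lower than inhibitory values in every library, with a log2 fold change of -3.66 ± 0.329 (SE; edgeR adjusted p = 0.000879; lower in 5 of 5 libraries). SST-like nuclei were highest of the named inhibitory subclasses, at 679, 679 and 584 CPM (18 months) and 746 and 790.5 CPM (17 months). LAMP5-like nuclei were lowest of the named inhibitory subclasses, at 16.3, 39.4 and 83.6 CPM (18 months) and 54.3 and 12.6 CPM (17 months). No library of one overlapped with a library of the other. SST-like nuclei had a log2 fold change of 1.88 ± 0.167 (SE; edgeR adjusted p = 1.07e-06; higher in 5 of 5 libraries) and LAMP5-like nuclei a log2 fold change of -3.56 ± 0.262 (SE; edgeR adjusted p = 1.24e-07; lower in 5 of 5 libraries), each against the other 3 subclasses. PVALB-like nuclei at 437 ± 69.8 CPM and VIP-like nuclei at 385 ± 64.5 CPM had log2 fold changes of 0.95 and 0.72, which missed the fold threshold.

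PDE1C was at 6.89 CPM in claustrum-like nuclei and 55.04 CPM in other excitatory nuclei on average. The claustrum-like values were 3.73, 8.31 and 7.56 CPM (18 months) and 6.698 and 8.14 CPM (17 months), and the other excitatory values were 27.6, 72.0 and 83.3 CPM (18 months) and 29.96 and 62.3 CPM (17 months). These groups did not overlap, and the log2 fold change was -2.95 ± 0.165 (SE; edgeR adjusted p = 3.97e-05). The unnamed excitatory cluster 7 held 339 ± 73.7 CPM, and with only named excitatory clusters as the comparison the log2 fold change was -2.03, still called. Claustrum-like cluster 1 was called lower than the other claustrum-like clusters, with a log2 fold change of -1.15 ± 0.263 (SE; edgeR adjusted p = 0.00704; lower in 5 of 5 libraries) at a level of 3.901 ± 2.37 CPM. There, 2.28% of all tested genes passed the call (0.806% higher and 1.48% lower). That call was lost without library 2 of the 18-month animal, at -0.95 (edgeR adjusted p = 0.0504), and without its library 3, at -0.89 (edgeR adjusted p = 0.00693). Striatal nuclei held 5.86 ± 3.65 CPM, with log2 fold changes of -5.50 ± 0.289 (SE; edgeR adjusted p = 4.95e-05) against inhibitory and -2.11 ± 0.251 (SE; edgeR adjusted p = 0.000216) against excitatory nuclei.

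PDE3A, the cAMP enzyme that cGMP inhibits, was highest among the named neuronal classes in VIP-like nuclei, which derive from the caudal ganglionic eminence. An unnamed cluster of 23 nuclei outside the comparisons held 1571 CPM. VIP-like nuclei held 613, 629 and 689 CPM (18 months) and 455 and 523 CPM (17 months). SST-like nuclei held 0, 11.4 and 1.97 CPM (18 months) and 53.5 and 64.4 CPM (17 months). PVALB-like nuclei held 96.1, 84.7 and 93.8 CPM (18 months) and 189 and 181 CPM (17 months). VIP-like values lay above all values of the other named inhibitory subclasses, and in SST-like nuclei the 17-month libraries were the high ones. SST-like library 1 of the 18-month animal had no count, which allows up to 4.36 CPM (3 counts). VIP-like nuclei had a log2 fold change of 2.59 ± 0.275 (SE; edgeR adjusted p = 6.7e-06; higher in 5 of 5 libraries) and SST-like nuclei a log2 fold change of -3.57 ± 0.496 (SE; edgeR adjusted p = 9.44e-05; lower in 5 of 5 libraries) against the other 3 subclasses. LAMP5-like nuclei, at 289 ± 58.8 CPM, had 1.32 ± 0.338 (SE; edgeR adjusted p = 0.0109), and lost the call without library 1 of the 18-month animal, at 1.12 (edgeR adjusted p = 0.0619), and without its library 2, at 1.11 (edgeR adjusted p = 0.0805).

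VIP-like and LAMP5-like nuclei, grouped here as the caudal subclasses, carried more PDE3A than SST-like and PVALB-like nuclei, grouped as the medial subclasses. The groups are made of named subclasses and their origin was not measured, and some LAMP5 neurons of primates are known to arise in the medial eminence. The caudal subclasses held 508, 539 and 559 CPM (18 months) and 368 and 442 CPM (17 months), against 66.2, 57.3 and 62.7 CPM (18 months) and 143 and 149 CPM (17 months) in the medial subclasses. The ranges did not overlap, and the difference had a log2 fold change of 2.39 ± 0.382 (SE; edgeR adjusted p = 0.0105; higher in 5 of 5 libraries). PDE4B was the other gene called there, at 1.28 ± 0.0664 (SE; edgeR adjusted p = 7.92e-17). Thus 2 of 8 genes were called, both higher, where 8.07% of all tested genes passed the call (4.33% higher and 3.74% lower). For PDE4B only VIP-like nuclei, at 830 to 1028 CPM, lay above both medial subclasses. LAMP5-like nuclei, at 66.6 to 177 CPM, lay below SST-like nuclei, at 497 to 659 CPM, and overlapped PVALB-like nuclei, at 92.8 to 163 CPM. PDE1C stood at 269 ± 56.2 CPM in the caudal and 522 ± 66.0 CPM in the medial subclasses, with a log2 fold change of -0.96 that missed the fold threshold, except without library 3 of the 18-month animal, where it was -1.09 (edgeR adjusted p = 8.38e-06).

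Excitatory nuclei were far below inhibitory nuclei for PDE3A in the 18-month animal and less so in the 17-month animal. Excitatory values were 2.33, 4.05 and 2.33 CPM (18 months) and 52.4 and 52.4 CPM (17 months). Inhibitory values were 305, 288 and 326 CPM (18 months) and 269 and 267 CPM (17 months). All excitatory values lay below all inhibitory values, and the log2 fold change was -4.46 ± 1.12 (SE; edgeR adjusted p = 0.0291). In this comparison 2 of the 8 genes were called higher and 2 lower, with a median log2 fold change of 0.11, beside 0.01 over all genes, of which 15.5% were called (8.17% higher and 7.31% lower). The mean differences of log2(CPM + 1) were -6.33 within the 18-month animal and -2.34 within the 17-month animal. The call was lost without any 1 library of the 18-month animal: the values were -3.95 (edgeR adjusted p = 0.0785), -4.10 (edgeR adjusted p = 0.0901) and -3.96 (edgeR adjusted p = 0.0753) without its libraries 1, 2 and 3. Outside the neurons, mural-like nuclei were high at 843 ± 423 CPM, with 557 to 1454 CPM over 4 libraries, and astrocyte-like and OPC-like nuclei stood at 242 ± 70.7 CPM and 240.2 ± 22.4 CPM.

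PDE4B, a cAMP-specific enzyme studied in brain as a partner of the scaffold protein DISC1, was high in the oligodendrocyte lineage and in layer 6 corticothalamic-like nuclei. Layer 6 intratelencephalic-like nuclei, at 523 to 643 CPM, were below VIP-like nuclei, at 830 to 1028 CPM. Oligodendrocyte-like nuclei held 3201, 2831 and 2946 CPM (18 months) and 2917 and 2845 CPM (17 months), and OPC-like nuclei held 1593, 1744 and 1709 CPM (18 months) and 1520.4 and 1579 CPM (17 months). Both classes lay above astrocyte-like nuclei at 669.8 ± 127 CPM and microglia-like nuclei at 235 ± 46.7 CPM in every library. Against the mean of the other 3 glial classes, oligodendrocyte-like nuclei had a log2 fold change of 2.30 ± 0.0829 (SE; edgeR adjusted p = 4.38e-19; higher in 5 of 5 libraries) and microglia-like nuclei a log2 fold change of -2.84 ± 0.111 (SE; edgeR adjusted p = 2.1e-18; lower in 5 of 5 libraries). In the direct comparison of OPC-like with oligodendrocyte-like nuclei the log2 fold change was -0.82 ± 0.11 (SE; edgeR adjusted p = 3.15e-07), lower in 5 of 5 libraries and under the fold threshold. Committed precursor-like nuclei were near the oligodendrocyte-like level, at 2420.4 ± 153 CPM (SD, n = 4).

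Among the neuronal classes described, PDE4B was highest in layer 6 corticothalamic-like nuclei, at 1465 ± 107 CPM (SD, n = 5), and low in claustrum-like nuclei. Claustrum-like nuclei held 274, 317 and 336 CPM (18 months) and 292 and 261 CPM (17 months). Other excitatory nuclei held 731, 810.0 and 746 CPM (18 months) and 687 and 691 CPM (17 months). Each claustrum-like value was below each value of the other excitatory nuclei, and the log2 fold change was -1.30 ± 0.0452 (SE; edgeR adjusted p = 8.95e-11). Claustrum-like cluster 2 was the low one, at 170.2 ± 31.5 CPM, with -1.15 ± 0.0924 (SE; edgeR adjusted p = 9.16e-06) against the other claustrum-like clusters. The inhibitory subclasses split again, each tested against the mean of the other subclasses. VIP-like nuclei at 933 ± 84.4 CPM and SST-like nuclei at 557 ± 62.3 CPM were higher with 2.15 ± 0.114 (SE; edgeR adjusted p = 1e-09) and 1.18 ± 0.128 (SE; edgeR adjusted p = 4.62e-06). Every SST-like library nevertheless lay below every VIP-like library. LAMP5-like nuclei at 125 ± 43.96 CPM and PVALB-like nuclei at 133 ± 27.2 CPM were lower with -1.73 ± 0.167 (SE; edgeR adjusted p = 1.1e-06) and -1.59 ± 0.145 (SE; edgeR adjusted p = 5.19e-07). The unnamed inhibitory cluster 3 was lowest of all classes shown, at 44.9 ± 26.6 CPM.

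PDE4C, another cAMP-specific enzyme, was higher in claustrum-like than in other excitatory nuclei. Claustrum-like nuclei held 129, 133 and 111 CPM (18 months) and 166 and 171 CPM (17 months). Other excitatory nuclei held 18.2, 21.8 and 19.8 CPM (18 months) and 30.05 and 27.6 CPM (17 months). The lowest claustrum-like library lay above the highest other excitatory library, and within both classes the 17-month libraries were the high ones. The difference had a log2 fold change of 2.61 ± 0.0524 (SE; edgeR adjusted p = 5.71e-13; higher in 5 of 5 libraries). Layer 6 intratelencephalic-like nuclei held 23.8 ± 6.94 CPM, layer 6 corticothalamic-like nuclei 5.74 ± 2.16 CPM and layer 4/5 intratelencephalic-like nuclei 9.43 ± 5.37 CPM. Among the claustrum-like clusters, cluster 1 held 167 ± 29.2 CPM, cluster 3 146 ± 29.4 CPM, cluster 11 132 ± 15.3 CPM and cluster 2 109 ± 25.2 CPM. The log2 fold changes of clusters 1 and 2 against the other tested clusters, 0.43 and -0.60, missed the fold threshold, with edgeR adjusted p-values of 8.01e-08 and 4.35e-10 and the same direction in 5 of 5 libraries.

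Inhibitory nuclei held 3.58 ± 1.26 CPM of PDE4C and striatal nuclei 2.64 ± 1.605 CPM. The excitatory mean was 93.6 ± 14.7 CPM, so that excitatory over inhibitory nuclei had a log2 fold change of 4.77 ± 0.0973 (SE; edgeR adjusted p = 3.73e-15; higher in 5 of 5 libraries). The inhibitory level was 2.15 to 4.800% of the excitatory one, below the share of SLC17A7 in inhibitory nuclei, 11.1 to 22.2%. The oligodendrocyte-like and OPC-like levels, 4.76 ± 2.62 CPM and 2.51 ± 1.35 CPM, were 2.08 to 7.03% and 0.816 to 3.75% of the excitatory level and also below the share of SLC17A7 in those classes. The part of free RNA in these levels was not tested. Mural-like nuclei held 143 ± 35.1 CPM (SD, n = 4), within the range of the claustrum-like clusters. Endothelial-like nuclei held 38.5 ± 11.7 CPM (SD, n = 5), or 17.7 to 54.3% of the excitatory level, with a range that overlapped that of layer 6 intratelencephalic-like nuclei, and their SLC17A7 share was 22.2 to 65.3%.

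PDE4D was high in all cortical and claustrum-like neurons and low in the striatum. Class means ran from 1188 CPM in LAMP5-like nuclei to 2549 CPM in the unnamed inhibitory cluster 3, with layer 6 intratelencephalic-like nuclei at 2229 ± 34.8 CPM. Claustrum-like and other excitatory nuclei held 1609.6 ± 34.3 CPM and 2109 ± 49.05 CPM, and the log2 fold change of -0.38 ± 0.0347 (SE; edgeR adjusted p = 1.06e-06) was under the fold threshold although lower in 5 of 5 libraries. Striatal nuclei held 272, 341 and 246 CPM (18 months) and 295 and 284 CPM (17 months). Inhibitory nuclei held 1872, 1753 and 1890.1 CPM (18 months) and 1869 and 1960.1 CPM (17 months). The groups did not overlap, and the difference had a log2 fold change of -2.46 ± 0.0709 (SE; edgeR adjusted p = 3.53e-13; lower in 5 of 5 libraries). Against excitatory nuclei it was -2.52 ± 0.0636 (SE; edgeR adjusted p = 1.05e-14). In glia, the levels of oligodendrocyte-like, OPC-like and microglia-like nuclei were 24.7 to 46.2%, 32.5 to 38.7% and 30.1 to 42.9% of the excitatory level, with means of 33.6%, 35.3% and 34.5%, and the mean shares of SLC17A7 in the same classes were 55.8%, 38.9% and 60.4%. The share of PDE4D in astrocyte-like nuclei was 6.96 to 20.97%. The part of free RNA in these levels was not tested.

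Clusters of the striatal projection neurons were named by markers as a direct pathway-like class (677 nuclei) or an indirect pathway-like class (577 nuclei). Neurons of these 2 pathways carry different dopamine receptors and send their axons to different targets. TAC1, a direct pathway marker, averaged 314 ± 84.4 CPM in direct and 7.24 ± 4.33 CPM in indirect pathway-like nuclei, and DRD2, the indirect pathway dopamine receptor, 4.08 ± 3.86 CPM and 588 ± 67.4 CPM. DRD1, the direct pathway receptor, was low throughout, at 14.7 ± 4.12 CPM and 0.878 ± 1.102 CPM. These markers served to name the classes, so their values describe the naming. PDE4D was lower in the direct class. Direct pathway-like nuclei held 165, 176 and 134 CPM (18 months) and 198 and 194 CPM (17 months), and indirect pathway-like nuclei held 425, 458 and 379 CPM (18 months) and 565 and 518 CPM (17 months). The direct value was below the indirect value of the same library in every library, with no overlap between the classes, and the difference had a log2 fold change of -1.44 ± 0.0599 (SE; edgeR adjusted p = 3.04e-24; lower in 5 of 5 libraries). PDE4D was the 1 gene called of the 6 phosphodiesterases tested, where 1.17% of all tested genes passed the call (0.740% higher and 0.434% lower). PDE1C and PDE4C had too few counts to be tested there. PDE3A was under the fold threshold at 0.66 ± 0.105 (SE; edgeR adjusted p = 7.97e-06), with 88.9 ± 10.6 CPM in direct and 62.8 ± 24.5 CPM in indirect pathway-like nuclei. PDE4B had -0.88 ± 0.27 (SE; edgeR adjusted p = 0.213) and passed the call only without library 3 of the 18-month animal, at -1.15 (edgeR adjusted p = 5.89e-07).

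PDE10A and PDE7B were high in both striatal classes and in an unnamed striatal cluster. PDE10A in striatal nuclei lay at 10689, 10534 and 11632 CPM (18 months) and 8792 and 8249 CPM (17 months). Inhibitory nuclei outside the striatum held 303, 452 and 379 CPM (18 months) and 468 and 437 CPM (17 months). Excitatory nuclei held 388, 433 and 340.4 CPM (18 months) and 534 and 533 CPM (17 months). The lowest striatal library stood far above the highest of the other classes, with a log2 fold change of 4.87 ± 0.217 (SE; edgeR adjusted p = 2.23e-05; higher in 5 of 5 libraries) against inhibitory nuclei and 4.64 ± 0.253 (SE; edgeR adjusted p = 7.31e-05) against excitatory nuclei. Direct and indirect pathway-like nuclei held 9898 ± 1772 CPM and 10406 ± 1092 CPM, with a log2 fold change of -0.10 ± 0.0467 (SE; edgeR adjusted p = 0.27), and their ranges overlapped. The remaining striatal nuclei were in clusters without a name, the most numerous of which (282 nuclei) held 10574 ± 1404 CPM of PDE10A, 2592 ± 267 CPM of PDE7B and 243 ± 34.5 CPM of PDE4D (SD, n = 5). An unnamed cluster (cluster 17, 351 nuclei), which scored for both inhibitory and striatal markers, held 3870.3, 4331 and 3483 CPM (18 months) and 1428 and 2245 CPM (17 months), between the striatal and all other classes.

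PDE7B in striatal nuclei lay at 2627, 2375 and 2638 CPM (18 months) and 2302 and 2209 CPM (17 months), against 258, 307 and 272 CPM (18 months) and 300.0 and 249 CPM (17 months) in inhibitory nuclei. The striatal values were all higher, with a log2 fold change of 3.38 ± 0.075 (SE; edgeR adjusted p = 2.98e-14; higher in 5 of 5 libraries) and, against excitatory nuclei, 3.42 ± 0.0715 (SE; edgeR adjusted p = 1.14e-15). Direct and indirect pathway-like nuclei held 2428 ± 243 CPM and 2606 ± 159 CPM, with overlapping ranges and a log2 fold change of -0.11 ± 0.0498 (SE; edgeR adjusted p = 0.224). In all, 2 of the 8 genes were higher and 5 lower in striatal than in inhibitory nuclei, and 2 were higher and 5 lower than in excitatory nuclei, where 21.7% of all tested genes passed the call (8.96% higher and 12.8% lower). The median log2 fold changes of the 8 genes were -1.75 and -1.96, beside 0.02 and 0.00 over all genes. The lower genes in both were PDE1A, PDE1C, PDE4B and PDE4D, with PDE3A added against inhibitory nuclei and PDE4C against excitatory nuclei. PDE3A against excitatory nuclei, 2.78 (edgeR adjusted p = 0.0642), missed the threshold in edgeR and was 3.08 in DESeq2 (adjusted p = 0.000306).

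**Figure D3:**
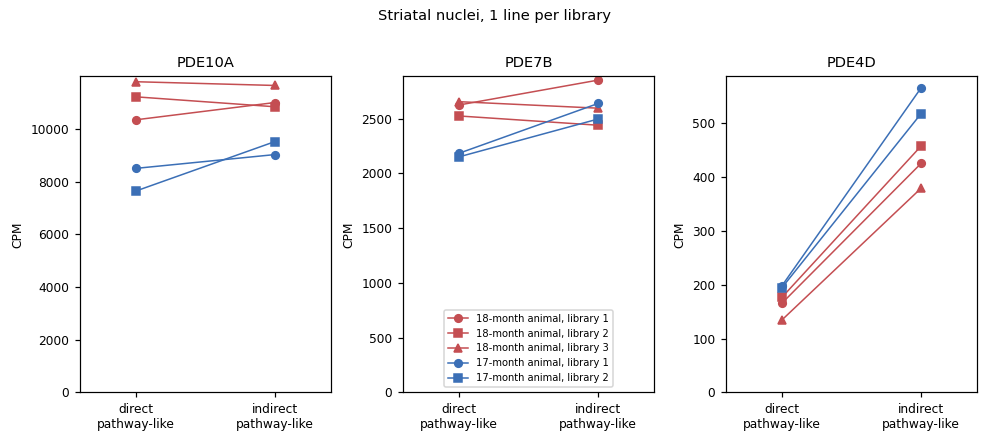
Levels (CPM) of PDE10A, PDE7B and PDE4D in direct (left) and indirect (right) pathway-like striatal nuclei, with 1 line per library, the 18-month animal in red and the 17-month animal in blue. Every PDE4D line climbs towards the indirect class, whose lowest library is at 379 CPM, while the highest direct library is at 198 CPM. PDE10A and PDE7B ranges overlap between the classes.

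Outside the striatum, PDE7B was lower in claustrum-like than in other excitatory nuclei. Claustrum-like nuclei held 73.4, 118 and 189.7 CPM (18 months) and 143 and 129 CPM (17 months). Other excitatory nuclei held 512, 397 and 465 CPM (18 months) and 448 and 352 CPM (17 months). The groups did not overlap, and the log2 fold change was -1.77 ± 0.264 (SE; edgeR adjusted p = 0.00725). Layer 6 intratelencephalic-like nuclei held 576 ± 64.4 CPM, and layer 6 corticothalamic-like nuclei were lowest of all classes shown at 17.7 ± 12.4 CPM. The claustrum-like clusters took another order than for PDE1A: cluster 3 held 220.1 ± 73.5 CPM, with 1.67 ± 0.143 (SE; edgeR adjusted p = 4.13e-05), and cluster 2 held 48.4 ± 18.9 CPM, with -1.80 ± 0.169 (SE; edgeR adjusted p = 6.71e-05), each against the other claustrum-like clusters. SST-like nuclei were the high inhibitory subclass at 702 ± 112 CPM, with 1.41 ± 0.144 (SE; edgeR adjusted p = 4.54e-06), and PVALB-like nuclei the low one at 150.3 ± 29.3 CPM, with -1.58 ± 0.166 (SE; edgeR adjusted p = 4.74e-06). Mural-like and endothelial-like nuclei held 955 ± 225 CPM and 691 ± 231 CPM. In the 4 inhibitory subclasses together, VIP-like nuclei had 2, LAMP5-like 3, SST-like 5 and PVALB-like nuclei 3 calls among 7 phosphodiesterases tested. For VIP-like nuclei 5.67% of all tested genes passed the call (3.60% higher and 2.06% lower), and for LAMP5-like nuclei 7.49% did (3.49% higher and 4.0% lower). For SST-like nuclei the shares were 6.68% called (3.25% higher and 3.42% lower) and for PVALB-like nuclei 6.75% called (3.34% higher and 3.41% lower). PDE4C was not tested there because of low counts.

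PDE10A was not called between the excitatory classes. Claustrum-like nuclei held 435 ± 116 CPM and other excitatory nuclei 464 ± 51.5 CPM, with a log2 fold change of -0.12 ± 0.118 (SE; edgeR adjusted p = 0.484), lower in 3 of 5 libraries. Glial levels of PDE10A were 1.03 to 1.96% of the striatal level in astrocyte-like nuclei and 2.19 to 3.201% in OPC-like nuclei. RGS9, another striatal gene, lay at 2.97 to 5.53% of its striatal level in oligodendrocyte-like nuclei, where PDE10A lay at 1.33 to 2.902%.

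In the oligodendrocyte lineage, the precursors held more PDE1A, PDE3A and PDE7B than the mature nuclei. OPC-like nuclei were called higher than the mean of oligodendrocyte-like, astrocyte-like and microglia-like nuclei in 5 of 8 genes, where 17.3% of all tested genes passed the call (9.99% higher and 7.27% lower). Those genes were PDE1A, PDE1C, PDE3A, PDE4B and PDE7B. In the direct comparison with oligodendrocyte-like nuclei, 3 were called higher, where 20.1% of all tested genes passed the call (12.5% higher and 7.68% lower). PDE1A held 472, 495 and 508 CPM (18 months) and 504 and 439 CPM (17 months) in OPC-like nuclei, against 45.4, 79.9 and 47.2 CPM (18 months) and 139 and 109 CPM (17 months) in oligodendrocyte-like nuclei. PDE7B held 484, 445 and 493 CPM (18 months) and 397 and 376 CPM (17 months) in OPC-like nuclei, against 43.3, 81.4 and 46.3 CPM (18 months) and 99.02 and 55.7 CPM (17 months) in oligodendrocyte-like nuclei. PDE3A held 274, 233 and 238 CPM (18 months) and 212 and 244 CPM (17 months) in OPC-like nuclei, against 25.4, 23.8 and 20.9 CPM (18 months) and 36.8 and 28.01 CPM (17 months) in oligodendrocyte-like nuclei. For none of these genes did a value of one class reach a value of the other. The log2 fold changes were 2.68 ± 0.227 (SE; edgeR adjusted p = 1.97e-07) for PDE1A, 2.85 ± 0.231 (SE; edgeR adjusted p = 1.22e-07) for PDE7B and 3.20 ± 0.264 (SE; edgeR adjusted p = 1.58e-07) for PDE3A, each higher in 5 of 5 libraries.

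**Figure D4:**
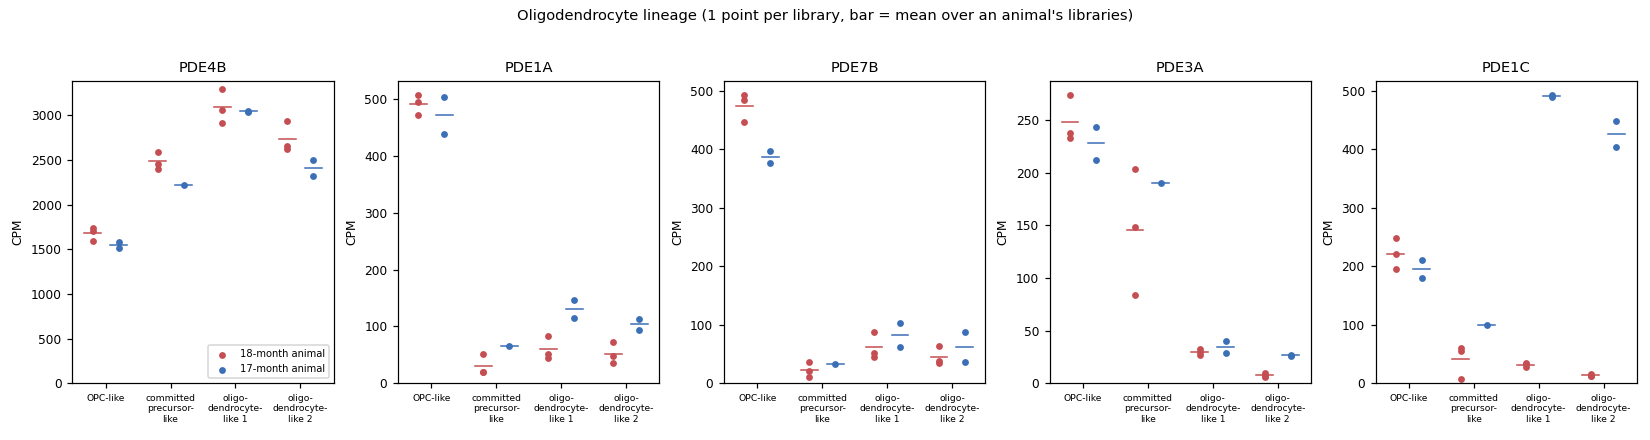
Levels (CPM) of PDE4B, PDE1A, PDE7B, PDE3A and PDE1C in OPC-like, committed precursor-like and both oligodendrocyte-like clusters, with 1 point per library, the 18-month animal in red and the 17-month animal in blue, and a bar at the mean of each animal. PDE1A and PDE7B are high in OPC-like nuclei and low in the later classes. PDE1C in the oligodendrocyte-like clusters lies at 12.3 to 34.1 CPM in the 18-month animal and at 404 to 493 CPM in the 17-month animal.

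Committed precursor-like nuclei, the step between precursors and oligodendrocytes that expresses GPR17, had 39.6 ± 23.1 CPM (SD, n = 4) of PDE1A and 24.8 ± 11.9 CPM of PDE7B, both at or below the oligodendrocyte-like level, while PDE3A at 156 ± 54.04 CPM was closer to the OPC-like level. Their small number allowed sums in 4 libraries only. These sums held 3 to 13 counts of PDE1A and 2 to 9 counts of PDE7B per library, so both levels are uncertain. Oligodendrocyte-like nuclei were called lower than the other glia for PDE3A, -1.95 ± 0.252 (SE; edgeR adjusted p = 1.44e-05), and PDE7B, -1.48 ± 0.201 (SE; edgeR adjusted p = 2.24e-05), and 2 of 8 genes (PDE4B and PDE1C) were called higher and 2 lower, where 20% of all tested genes passed the call (7.92% higher and 12.1% lower).

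Astrocyte-like nuclei were called in 3 of 8 genes, where 20% of all tested genes passed the call (11.7% higher and 8.29% lower). PDE3A was higher, at 295, 306 and 276 CPM (18 months) and 169.8 and 161 CPM (17 months), with a log2 fold change of 2.17 ± 0.229 (SE; edgeR adjusted p = 2.49e-06; higher in 5 of 5 libraries). The 18-month libraries were the high ones. PDE4D and PDE1A were lower, with -1.51 ± 0.111 (SE; edgeR adjusted p = 3.08e-11) and -1.40 ± 0.251 (SE; edgeR adjusted p = 0.00034). Microglia-like nuclei were called lower in 4 of 8 genes (PDE1C, PDE3A, PDE4B and PDE7B), where 26.0% of all tested genes passed the call (11.6% higher and 14.4% lower). PDE3A there stood at 22.2 ± 14.6 CPM with -2.53 ± 0.32 (SE; edgeR adjusted p = 1.07e-05). The PDE7B call, -1.01 ± 0.223 (SE; edgeR adjusted p = 0.00142), sat on the fold threshold and was lost without library 1 of the 18-month animal, at -0.86 (edgeR adjusted p = 0.00262), without its library 2, at -0.98 (edgeR adjusted p = 0.00932), without its library 3, at -0.92 (edgeR adjusted p = 0.00879), and without the library block, at -0.99 (edgeR adjusted p = 0.000491). The PDE1C call, -2.75 ± 1.000 (SE; edgeR adjusted p = 0.0298), was lost without library 1 or 3 of the 18-month animal, at -2.67 (edgeR adjusted p = 0.063) and -2.63 (edgeR adjusted p = 0.0684), and without library 1 or 2 of the 17-month animal, at -2.71 (edgeR adjusted p = 0.0664) and -2.86 (edgeR adjusted p = 0.0545).

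Neurons (the mean of excitatory, inhibitory and striatal sums) were called higher than glia (the mean of the 4 glial classes) for 4 genes and lower for 1, where 25.5% of all tested genes passed the call (14.9% higher and 10.6% lower). The higher genes were PDE10A at 2.79 ± 0.0825 (SE; edgeR adjusted p = 1.04e-26), PDE7B at 2.14 ± 0.0994 (SE; edgeR adjusted p = 8.58e-18), PDE4C at 1.38 ± 0.213 (SE; edgeR adjusted p = 6.12e-07) and PDE4D at 1.24 ± 0.0773 (SE; edgeR adjusted p = 2.94e-16), and the lower gene was PDE4B at -1.47 ± 0.0714 (SE; edgeR adjusted p = 3.11e-20), each in 5 of 5 libraries. The mean over classes gives the striatal nuclei the same weight as the other neurons, and single classes departed from it. PDE4C overlapped between inhibitory (1.66 to 4.85 CPM) and oligodendrocyte-like nuclei (1.61 to 7.71 CPM). PDE7B was lower in excitatory nuclei (225 to 292 CPM) than in OPC-like nuclei (376 to 493 CPM). PDE4D was lower in striatal nuclei (246 to 341 CPM) than in oligodendrocyte-like nuclei (437 to 859 CPM). PDE4B was higher in excitatory nuclei (432 to 541 CPM) than in microglia-like nuclei (193 to 299 CPM). The glial counts of neuronal markers given above come from the same libraries, and the part of free RNA in these values was not tested.

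PDE1C differed strongly between the animals in oligodendrocyte-like nuclei and not by the test in their precursors. Oligodendrocyte-like nuclei held 28.1, 23.4 and 27.9 CPM (18 months) and 479 and 469 CPM (17 months). OPC-like nuclei of the same libraries held 221, 196 and 248 CPM (18 months) and 211 and 180.2 CPM (17 months). The animals were apart in oligodendrocyte-like nuclei and overlapped in OPC-like nuclei. For the 18-month over the 17-month animal the log2 fold change was -4.16 ± 0.0784 (SE; edgeR adjusted p = 3.68e-11) in oligodendrocyte-like and 0.16 ± 0.0996 (SE; edgeR adjusted p = 0.453) in OPC-like nuclei. Only 12 of 9619 genes tested in oligodendrocyte-like nuclei (0.125%) had a log2 fold change at least as large in size, PDE1C included, and 13.8% of all tested genes passed the call (7.33% higher and 6.42% lower). Both oligodendrocyte-like clusters showed it: cluster 1 held 34.1, 27.6 and 32.3 CPM (18 months) and 489 and 493 CPM (17 months), and cluster 2 held 12.3, 12.6 and 16.3 CPM (18 months) and 449 and 404 CPM (17 months). The direction and the call held under each of the alternatives tried, from -4.20 to -4.07.

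The share of nuclei with a PDE1C UMI, after each nucleus was thinned to 1000 UMIs, was 2.36, 2.33 and 2.44% of oligodendrocyte-like nuclei at 18 months and 34.1 and 32.6% at 17 months. Without thinning it was 4.84, 5.07 and 5.07% at 18 months and 54.2 and 52.7% at 17 months. Microglia-like nuclei had thinned shares of 0.929, 1.35 and 0.917% at 18 months and 2.22 and 4.37% at 17 months. The oligodendrocyte-like share was above that of microglia-like nuclei in every library of both animals, by the smaller margin at 18 months. Median UMIs per nucleus were 2319, 2423 and 2637 at 18 months and 2330.0 and 2372 at 17 months in oligodendrocyte-like nuclei, and 1901 to 2302 in microglia-like nuclei. OPC-like nuclei had thinned shares of 17.99, 15.99 and 22.8% at 18 months and 15.6 and 19.2% at 17 months, which overlap.

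Comparisons of glial classes that rest on PDE1C changed with the animal. Oligodendrocyte-like nuclei were called higher than the other glia at 1.58 ± 0.639 (SE; edgeR adjusted p = 0.0486), higher in only 2 of 5 libraries, and the mean differences of log2(CPM + 1) were -0.58 within the 18-month animal and 3.24 within the 17-month animal. Without library 1 of the 17-month animal the value was 0.84 (edgeR adjusted p = 0.352), and without its library 2 it was 1.04 (edgeR adjusted p = 0.247). OPC-like over oligodendrocyte-like nuclei gave 1.11 ± 0.711 (SE; edgeR adjusted p = 0.215) over all libraries, and 3.02 within the 18-month animal and -1.28 within the 17-month animal on the log2(CPM + 1) scale. The test of the difference between these within-animal differences gave 4.32 ± 0.113 (SE; edgeR adjusted p = 1.98e-19), where 3.52% of genes were called.

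PDE3A separated the animals in the excitatory nuclei. Claustrum-like nuclei held 1.89, 2.09 and 1.77 CPM (18 months) and 53.1 and 50.5 CPM (17 months). Other excitatory nuclei held 3.16, 6.396 and 3.29 CPM (18 months) and 51.4 and 54.7 CPM (17 months). In both classes each 18-month library was below each 17-month library. The log2 fold changes, 18-month over 17-month, were -4.70 ± 0.112 (SE; edgeR adjusted p = 1.36e-08) in claustrum-like and -3.56 ± 0.266 (SE; edgeR adjusted p = 0.00212) in other excitatory nuclei. In claustrum-like nuclei 10 of 10983 genes (0.091%) differed by at least as much, where 13.8% of all tested genes passed the call (6.84% higher and 7.01% lower). In other excitatory nuclei 19 of 10490 (0.181%) did, where 10.5% of all tested genes passed the call (4.99% higher and 5.47% lower). Each excitatory subtype with sums in all libraries showed the split: layer 6 intratelencephalic-like nuclei held 2.92, 2.400 and 2.496 CPM (18 months) and 51.0 and 50.4 CPM (17 months), and layer 6 corticothalamic-like nuclei held 2.17, 3.31 and 1.57 CPM (18 months) and 50.8 and 55.4 CPM (17 months).

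Inhibitory nuclei as a class lay closer together, with 305, 288 and 326 CPM (18 months) and 269 and 267 CPM (17 months) and a log2 fold change of 0.20 ± 0.0599 (SE; edgeR adjusted p = 0.0358). In VIP-like nuclei the 18-month libraries were above the 17-month libraries, at 613, 629 and 689 CPM (18 months) and 455 and 523 CPM (17 months). In PVALB-like nuclei they were below, at 96.1, 84.7 and 93.8 CPM (18 months) and 189 and 181 CPM (17 months), and in SST-like nuclei too, as given above. The difference between animals in the caudal over medial contrast was 1.63 ± 0.133 (SE; edgeR adjusted p = 2.99e-20), where 0.237% of genes were called. That in the excitatory over inhibitory contrast was -4.31 ± 0.288 (SE; edgeR adjusted p = 0.0225), with 1.22% called. Astrocyte-like nuclei were also higher in the 18-month animal, at 0.85 ± 0.122 (SE; edgeR adjusted p = 5.77e-05) for the 18-month over the 17-month animal.

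**Figure D5:**
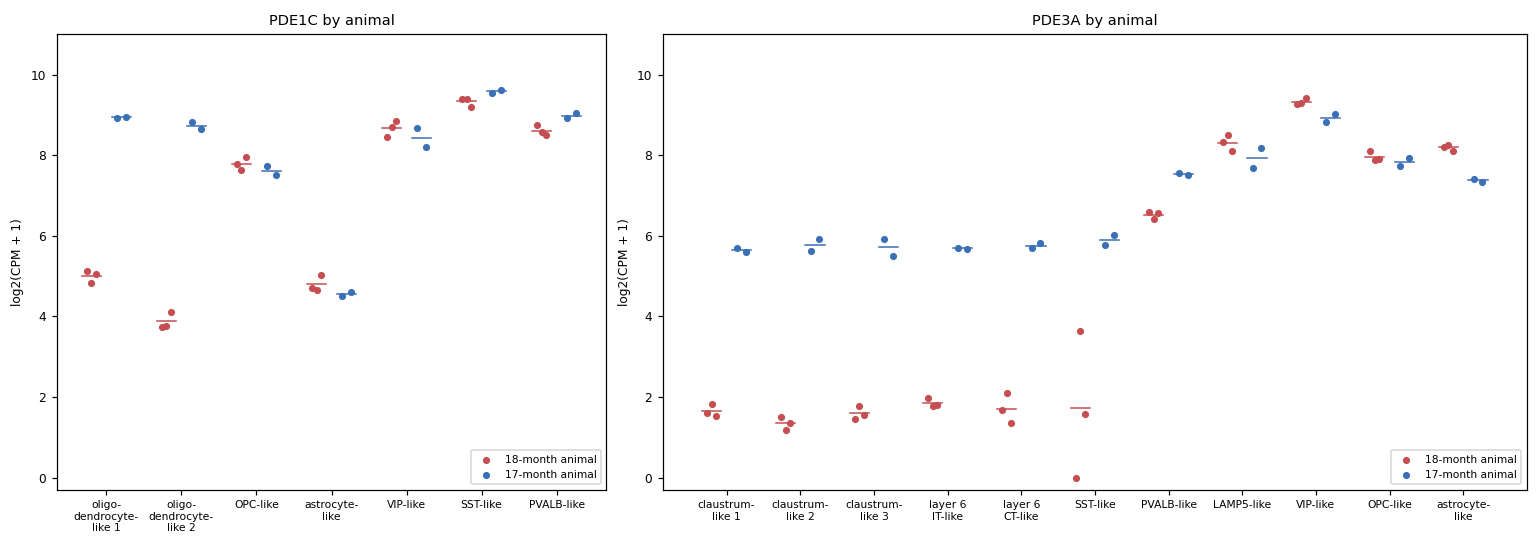
PDE1C (left) and PDE3A (right) by animal, as log2(CPM + 1), with 1 point per library, the 18-month animal in red left of the 17-month animal in blue, and a bar at each animal's mean. PDE1C splits in both oligodendrocyte-like clusters while the OPC-like points of the animals overlap, and PDE3A is lower in the 18-month animal in the claustrum-like clusters and higher in it in VIP-like and astrocyte-like nuclei.

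The share of claustrum-like nuclei with a PDE3A UMI after thinning to 1000 UMIs was 0, 0.1899 and 0% at 18 months and 3.39 and 5.62% at 17 months. The shares of 0 in 18-month libraries 1 and 3 allow up to 0.25% and 0.403% (3 nuclei). Without thinning the shares were 3.25, 2.85 and 3.76% at 18 months and 35.7 and 36.7% at 17 months. VIP-like nuclei had thinned shares of 37.6, 44.4 and 39.2% at 18 months and 34.2 and 31.5% at 17 months. The claustrum-like nuclei of the 18-month animal were the deeper ones, with median UMIs per nucleus of 18389.5, 16520.0 and 23610.0 at 18 months, against 12334 and 14730.0 at 17 months. As a level, PDE3A in excitatory nuclei was 0.716 to 19.6% of its inhibitory level over the libraries, while GAD1 and GAD2, markers of inhibitory neurons, were at 0.634 to 1.26% and 1.196 to 2.41%.

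The other differences between the animals, given as log2 fold changes of the 18-month over the 17-month animal, were smaller. In claustrum-like and in other excitatory nuclei PDE3A and PDE4C were the 2 of 8 genes called. PDE4C had -0.38 ± 0.0816 (SE; edgeR adjusted p = 0.0146) in claustrum-like nuclei and lost the call without library 1 (-0.43, adjusted p = 0.0984) and 2 (-0.34, adjusted p = 0.152) of the 17-month animal. In other excitatory nuclei it had -0.50 ± 0.109 (SE; edgeR adjusted p = 0.0165) and lost the call without library 1 (-0.43, adjusted p = 0.0545) of the 18-month animal and without library 1 (-0.45, adjusted p = 0.154) and 2 (-0.55, adjusted p = 0.0765) of the 17-month animal. PDE10A in claustrum-like nuclei, -0.57 ± 0.16 (SE; edgeR adjusted p = 0.0792), was not called, and was called without library 2 (-0.68, adjusted p = 0.0359) and 3 (-0.42, adjusted p = 0.0064) of the 18-month animal, in DESeq2 (-0.56, adjusted p = 0.002) and with the replicate block (-0.42, adjusted p = 0.00633).

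In striatal nuclei PDE10A and PDE7B were the 2 of 8 genes called, both higher in the 18-month animal, where 10.6% of all tested genes passed the call (5.43% higher and 5.19% lower). PDE10A had 0.42 ± 0.0753 (SE; edgeR adjusted p = 0.0014), with each 18-month library above each 17-month library, and the call held in each alternative. PDE7B had 0.24 ± 0.0716 (SE; edgeR adjusted p = 0.0427) and lost the call without library 1 (0.22, adjusted p = 0.119) and 3 (0.20, adjusted p = 0.0965) of the 18-month animal, without library 1 (0.28, adjusted p = 0.106) and 2 (0.21, adjusted p = 0.247) of the 17-month animal, in DESeq2 (0.24, adjusted p = 0.0848), with stricter doublet removal (0.23, adjusted p = 0.0539) and with the replicate block (0.20, adjusted p = 0.111). PDE3A in striatal nuclei, -0.44 ± 0.135 (SE; edgeR adjusted p = 0.0561), was not called, and was called without library 3 (-0.58, adjusted p = 0.0013) of the 18-month animal, without the filter on low counts (-0.41, adjusted p = 0.00246), with stricter doublet removal (-0.46, adjusted p = 0.0494) and with the replicate block (-0.56, adjusted p = 0.00488). In inhibitory nuclei PDE3A was the 1 gene of 8 called, where 7.18% of all tested genes passed the call (3.90% higher and 3.28% lower). It lost the call without library 1 (0.20, adjusted p = 0.0681) and 3 (0.15, adjusted p = 0.154) of the 18-month animal, without library 1 (0.20, adjusted p = 0.189) and 2 (0.19, adjusted p = 0.18) of the 17-month animal, in DESeq2 (0.19, adjusted p = 0.303) and with the replicate block (0.15, adjusted p = 0.157).

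In oligodendrocyte-like nuclei PDE4C was called beside PDE1C (2 of 8 genes) at -1.23 ± 0.316 (SE; edgeR adjusted p = 0.0277). It lost the call without library 1 (-1.19, adjusted p = 0.105) and 3 (-0.94, adjusted p = 0.051) of the 18-month animal, without library 1 (-1.18, adjusted p = 0.105) and 2 (-1.27, adjusted p = 0.129) of the 17-month animal and with the replicate block (-0.94, adjusted p = 0.0965). In OPC-like nuclei PDE7B was the 1 gene of 7 tested that was called, at 0.28 ± 0.0749 (SE; edgeR adjusted p = 0.0216), where 4.22% of all tested genes passed the call (2.05% higher and 2.17% lower). It lost the call without library 1 (0.27, adjusted p = 0.0902) and 3 (0.26, adjusted p = 0.134) of the 18-month animal, without library 2 (0.24, adjusted p = 0.151) of the 17-month animal, in DESeq2 (0.28, adjusted p = 0.382) and with the replicate block (0.26, adjusted p = 0.172). In astrocyte-like nuclei 2 of 7 genes tested were called, PDE3A higher as given above and PDE4B lower at -0.44 ± 0.0931 (SE; edgeR adjusted p = 0.00398), where 5.07% of all tested genes passed the call (3.01% higher and 2.06% lower). PDE4B lost the call there with the replicate block (-0.45, adjusted p = 0.0584).

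Microglia-like nuclei had 4 of 7 genes tested lower in the 18-month animal, where 5.45% of all tested genes passed the call (2.76% higher and 2.69% lower). These were PDE3A at -1.53 ± 0.311 (SE; edgeR adjusted p = 0.00622), PDE1C at -1.32 ± 0.342 (SE; edgeR adjusted p = 0.028), PDE7B at -0.89 ± 0.221 (SE; edgeR adjusted p = 0.0469) and PDE4B at -0.49 ± 0.107 (SE; edgeR adjusted p = 0.00894). PDE3A was lost without library 1 (-1.23, adjusted p = 0.152) of the 17-month animal. PDE1C was lost without library 1 (-1.16, adjusted p = 0.167) and 3 (-1.18, adjusted p = 0.111) of the 18-month animal, without library 2 (-1.03, adjusted p = 0.248) of the 17-month animal, in DESeq2 (-1.36, adjusted p = 0.155) and with the replicate block (-1.21, adjusted p = 0.0642). PDE4B was lost without library 1 (-0.48, adjusted p = 0.0825) and 3 (-0.46, adjusted p = 0.0521) of the 18-month animal, without library 2 (-0.44, adjusted p = 0.106) of the 17-month animal, in DESeq2 (-0.51, adjusted p = 0.233) and with the replicate block (-0.48, adjusted p = 0.0628). PDE7B was lost without library 1 (-0.71, adjusted p = 0.123) and 3 (-0.81, adjusted p = 0.172) of the 18-month animal, without library 1 (-0.76, adjusted p = 0.361) and 2 (-1.03, adjusted p = 0.129) of the 17-month animal, in DESeq2 (-0.90, adjusted p = 0.0682), in nuclei with at least 1000 genes (-0.89, adjusted p = 0.0846) and with the replicate block (-0.85, adjusted p = 0.227). The 17-month libraries also held more PDE3A in excitatory nuclei and more PDE1C in oligodendrocyte-like nuclei, and the part of free RNA in the microglial values was not tested.

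Other genes of the pathway were described from 13 further phosphodiesterases and 58 genes for cyclases, nitric oxide synthases, kinases, channels, anchors, G proteins and calmodulins, of which 13 and 57 had a row. In claustrum-like against other excitatory nuclei, the further phosphodiesterases had 0 higher and 1 lower of 11 tested (median log2 fold change -0.04) and the other pathway genes 3 higher and 6 lower of 50 tested (median -0.01), where 8.02% of all tested genes passed the call (3.42% higher and 4.60% lower). HCN4, a cyclic nucleotide-modulated pacemaker channel, was higher, at 12.8 ± 2.66 CPM in claustrum-like nuclei, against 3.16 ± 1.36 CPM in the other excitatory nuclei, a log2 fold change of 2.05 ± 0.127 (SE). ADCY2, an adenylyl cyclase, was higher at 1241 ± 49.1 CPM, against 542 ± 27.5 CPM (1.20 ± 0.0423), as was PRKG2, a cGMP-dependent kinase (1.20 ± 0.153). ADCY8, a calcium-stimulated adenylyl cyclase, was lower at 8.51 ± 4.27 CPM, against 89.9 ± 15 CPM (-3.43 ± 0.345), as were POPDC3, a cAMP-binding membrane protein (-2.22 ± 0.212), and NOS1, the neuronal nitric oxide synthase (-1.41 ± 0.245). Each of these passed the call and had the same direction in 5 of 5 libraries.

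Among the further phosphodiesterases and the other pathway genes together, 2 were higher and 2 lower in claustrum-like cluster 1, 3 higher and 3 lower in cluster 2 and 2 higher and 3 lower in cluster 3, each of 56 tested, where 2.28%, 2.73% and 2.39% of all tested genes passed the call. PDE9A, a cGMP-specific phosphodiesterase, held 16.3 ± 4.36 CPM in cluster 1, 0.9399 ± 0.449 CPM in cluster 2 and 1.79 ± 0.697 CPM in cluster 3, with a log2 fold change of 3.70 ± 0.202 (SE) for cluster 1 against the others. GUCY1A1, a subunit of the nitric oxide-sensitive guanylyl cyclase, was low in cluster 1 at 20.4 ± 6.93 CPM (-2.46 ± 0.414) and high in cluster 2 at 167 ± 62.8 CPM (2.05 ± 0.34). PRKG1, a cGMP-dependent kinase, took the reverse order, at 1049.9 ± 93.6 CPM in cluster 1 (1.72 ± 0.281) and 278 ± 155 CPM in cluster 2 (-1.58 ± 0.31). The call of PDE9A in cluster 3, -1.14 ± 0.327, was lost without library 2 or library 3 of the 18-month animal, at -0.99 and -0.89.

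Striatal against inhibitory nuclei had 4 higher and 3 lower of 11 tested among the further phosphodiesterases and 11 higher and 14 lower of 48 tested among the other pathway genes, with median log2 fold changes of 0.11 and 0.16, where 23.1% of all tested genes passed the call (10.7% higher and 12.3% lower). Against excitatory nuclei the counts were 4 higher and 3 lower of 11 tested and 9 higher and 16 lower of 50 tested, with medians of -0.27 and 0.25, where 21.7% passed (8.96% higher and 12.8% lower). PDE1B, the calcium-dependent enzyme of striatal neurons, held 792 ± 39.7 CPM in striatal and 45.3 ± 6.24 CPM in inhibitory nuclei, a log2 fold change of 4.39 ± 0.0669 (SE). ADCY5, the main adenylyl cyclase of the striatum, held 1311 ± 39.8 CPM and 105 ± 6.64 CPM (3.89 ± 0.061), and GNAL, the stimulatory G protein subunit coupled to dopamine receptors there, 1049 ± 25.6 CPM and 208 ± 9.51 CPM (2.58 ± 0.0574). ADCY8 was lower at 2.77 ± 1.87 CPM and 296 ± 7.04 CPM (-6.95 ± 0.181), and so was PDE5A, a cGMP-specific enzyme (-4.68 ± 0.193). Between direct and indirect pathway-like nuclei, 1 of the 46 further phosphodiesterases and other pathway genes tested was higher and 2 were lower, where 1.17% of all tested genes passed the call. NOS1 was lower in direct ones at 3.999 ± 3.87 CPM, against 121 ± 35.1 CPM in indirect ones (-5.21 ± 0.262), and GUCY1A1 at 171 ± 24.3 CPM and 558 ± 57.4 CPM (-1.78 ± 0.0838), while AKAP12, a kinase anchor, was higher (1.14 ± 0.104). Each of these passed the call, with the same direction in 5 of 5 libraries.

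Among the further phosphodiesterases, OPC-like nuclei had 3 higher and 1 lower of 9 tested, oligodendrocyte-like 2 higher and 5 lower of 9 tested, astrocyte-like 4 higher and 3 lower of 9 tested and microglia-like nuclei 2 higher and 3 lower of 9 tested, each against the mean of the other 3 glial classes. Oligodendrocyte-like nuclei were high for PDE8A, a high-affinity cAMP enzyme, at 1216 ± 66.3 CPM and a log2 fold change of 3.23 ± 0.073 (SE) against the other glia. Astrocyte-like nuclei were high for PDE5A (70.7 ± 32.6 CPM, 3.64 ± 0.21), PDE9A (98.5 ± 11.3 CPM, 3.61 ± 0.133) and the kinase PRKG1 (3301 ± 174 CPM, 4.94 ± 0.144). Microglia-like nuclei were high for PDE3B, the second cGMP-inhibited enzyme (736 ± 53.8 CPM, 3.24 ± 0.0677), and for the cyclase ADCY7 (237 ± 12.4 CPM, 5.76 ± 0.105). OPC-like nuclei were high for PDE9A (63.3 ± 6.399 CPM, 2.93 ± 0.13) and ADCY8 (214 ± 26.3 CPM, 3.50 ± 0.213). In the other pathway genes OPC-like nuclei had 11 higher and 2 lower of 42 tested, oligodendrocyte-like 4 higher and 6 lower of 42 tested, astrocyte-like 8 higher and 7 lower of 42 tested and microglia-like nuclei 4 higher and 11 lower of 42 tested. Over all tested genes, 17.3% passed the call in OPC-like, 20% in oligodendrocyte-like, 20% in astrocyte-like and 26.0% in microglia-like nuclei. Of the 131 pathway differences that the naming rule gave over all comparisons, 125 kept their call in each alternative and 0 changed direction. That rule took only called genes with large changes and the same direction in every library. Few losses or reversals could therefore appear, and the count says nothing of called genes in general.

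Over the 24 classes, the gene whose log2(mean CPM + 1) was most correlated with that of each phosphodiesterase, among 11165 genes of at least 20 CPM in some class, was OSBPL8 for PDE10A (r = 0.95), ZNF540 for PDE4D (r = 0.907), CYP39A1 for PDE4C (r = 0.892), PREX2 for PDE3A (r = 0.884), SYT9 for PDE4B (r = 0.854), WNT7A for PDE1A (r = 0.799), SEMA4G for PDE1C (r = 0.79) and ARHGAP10 for PDE7B (r = 0.78). The classes share libraries and depth, so these are Pearson correlations given as a description. CYP39A1, SYT9 and SEMA4G were also among the genes used for clustering, so they helped to draw the classes. In the order of the 24 class means, the library ranges of 19 to 22 of 23 pairs of neighbouring classes overlapped for each gene. The ranges pool both animals and leave out which library a value came from, so an overlap does not show that neighbours are alike.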

How the data were processed

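The authors deposited, per the labels, 1 count matrix per library, of whole-number UMI counts per gene and barcode with no normalization. CASAVA 1.8, Cell Ranger and Seurat, with the builds Mmul_10 and mm10, are named in the submitters' processing notes, and the file headers name Cell Ranger 5.0.1. What mm10 was used for is not given in the sources used here.

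From 40005 barcodes, 359 with under 500 genes and the barcodes with the highest Scrublet doublet scores (2555, 0.8% per 1000 nuclei of a library) were left out. Nuclei were clustered with scanpy 1.11.5 and igraph 0.11.9 on 2000 variable genes and 30 components, with the listed phosphodiesterase and cyclic nucleotide genes kept out, and clusters were named by marker lists. The 4497 genes used for clustering or naming were not tested. CGE is VIP-like with LAMP5-like, and MGE is SST-like with PVALB-like.

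Counts were summed per library and class (at least 20 nuclei) and tested with edgeR 4.0.16 (TMM, quasi-likelihood, filter on low counts), the library as a block between classes and no block between animals, with Benjamini-Hochberg adjustment over all genes tested. The subclasses, glial classes and claustrum-like clusters were each tested against the mean of the others in 1 fit that shares its spread. Differences between animals within a class rest on 3 and 2 libraries. SE is the log2 fold change divided by the square root of the F statistic. Shares of nuclei were thinned to 1000 UMIs. Limits and intervals cover counting error only. Code was tested on simulated data. DESeq2 1.42.0, no filter, no library block, at least 1000 genes per nucleus, stricter doublet removal, a comparison class of named clusters only, a replicate block between animals and leaving out each library were the alternatives.

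All 8 matched phosphodiesterases are described, and pathway genes were taken from up to 4 called genes per direction and comparison with the largest change and the same direction in every library. The most alike gene was that with the highest Pearson correlation over class means. The members, gene lists and rules were chosen with earlier results of these data known. PDE2A and PDE8B were not analysed here, because no row was matched to them. Symbols came from the files, or, by identifier, from a gene table of another assembly, so no coordinates are given.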

Additional observations from a re-analysis of the deposited data

Results flagged for a closer look

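In claustrum-like nuclei, library 1 of the 17-month animal stood apart for PDE4D at 1669 CPM, with the other 4 libraries between 1585 and 1606 CPM. This was 1 of 64 sets of libraries examined, where chance gives about 1 in 20.

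Differences between classes were compared between the animals with an interaction term in edgeR, and 9 of 54 passed an adjusted p under 0.05. Each value is the difference at 18 months minus that at 17 months on the log2 scale, and the values within each animal are mean differences of log2(CPM + 1). Most concerned PDE3A. Its excitatory over inhibitory difference changed by -4.31 ± 0.288 (SE; adjusted p = 0.0225), with -6.33 at 18 months and -2.34 at 17 months, where 1.22% of genes were called. Its claustrum-like over other excitatory difference changed by -1.07 ± 0.20 (SE; adjusted p = 0.0186), with -0.81 at 18 months and -0.03 at 17 months (0.821% called). The striatal over excitatory difference of PDE3A changed by 3.68 ± 0.406 (SE; adjusted p = 0.0319), with 3.94 at 18 months and 0.63 at 17 months (2.53% called), and the striatal over inhibitory difference by -0.63 ± 0.118 (SE; adjusted p = 0.00307), with -2.39 at 18 months and -1.71 at 17 months (2.19% called). The caudal over medial difference of PDE3A changed by 1.63 ± 0.133 (SE; adjusted p = 2.99e-20), with 3.09 at 18 months and 1.46 at 17 months (0.237% called). Its OPC-like over oligodendrocyte-like difference changed by 0.55 ± 0.15 (SE; adjusted p = 0.0384), with 3.36 at 18 months and 2.79 at 17 months (3.52% called).

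PDE1C changed by 4.32 ± 0.113 (SE; adjusted p = 1.98e-19) in the same OPC-like over oligodendrocyte-like difference, with 3.02 at 18 months and -1.28 at 17 months, so that the direction differed between the animals. The striatal over inhibitory difference of PDE1A changed by -0.99 ± 0.229 (SE; adjusted p = 0.049), with -3.64 at 18 months and -2.75 at 17 months. The striatal over excitatory difference of PDE10A changed by 0.86 ± 0.144 (SE; adjusted p = 0.0047), with 4.82 at 18 months and 3.99 at 17 months. With 1 animal per age, age, individual and preparation cannot be told apart in any of these.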

How the results depend on the processing

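Of 85 differences of the 8 phosphodiesterases that were called, 68 kept the call under every alternative tried, 63 of 69 between cell classes and 5 of 16 between animals. None of 855 recomputed values reversed. Those values are of differences already called, and every alternative kept libraries of both animals. A direction that differs between the animals could hardly show there, as for PDE1C in oligodendrocyte-like against other glia (-0.58 at 18 months and 3.24 at 17 months). Besides the losses given above, PDE1C in oligodendrocyte-like against other glia was lost without the filter on low counts, at 1.64 (edgeR adjusted p = 0.0606), and with stricter doublet removal, at 1.58 (edgeR adjusted p = 0.0506). Replicate numbers are shared by the animals, but the deviations of same-numbered libraries correlated between -0.196 and 0.196 over classes, so the numbers were not taken as pairs. The replicate block uses libraries 1 and 2 of both animals.

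The number of phosphodiesterases called changed by more than 1.5 times between the animals in these settings: claustrum-like nuclei 4 in DESeq2 (2 as reported), inhibitory nuclei 0 in DESeq2 and 0 with the replicate block (1 as reported), striatal nuclei 1 in DESeq2 and 4 without the filter (2 as reported), oligodendrocyte-like nuclei 4 in DESeq2 and 1 with the replicate block (2 as reported), OPC-like nuclei 0 in DESeq2 and 0 with the replicate block (1 as reported), astrocyte-like nuclei 1 with the replicate block (2 as reported), microglia-like nuclei 1 in DESeq2 and 1 with the replicate block (4 as reported). Leaving out 1 library gave, for claustrum-like nuclei 1 to 4 (2 as reported), other excitatory nuclei 1 to 3 (2 as reported), inhibitory nuclei 0 to 2 (1 as reported), striatal nuclei 1 to 4 (2 as reported), oligodendrocyte-like nuclei 1 to 4 (2 as reported), OPC-like nuclei 0 to 1 (1 as reported), astrocyte-like nuclei 2 to 4 (2 as reported), microglia-like nuclei 1 to 4 (4 as reported). Between classes it gave 0 to 1 (1 as reported) for claustrum-like cluster 1, 1 to 2 (1 as reported) for direct over indirect pathway-like nuclei and 2 to 3 (4 as reported) for microglia-like nuclei. Counts over all genes moved by more than 1.5 times in direct over indirect pathway-like nuclei (92 genes, against 58 without the library block) and between the animals in claustrum-like nuclei (1521 genes, against 245 to 295 without 1 library), other excitatory nuclei (1097 genes, against 259 to 730 without 1 library), inhibitory nuclei (686 genes, against 263 to 312 without 1 library and 198 in DESeq2), striatal nuclei (954 genes, against 427 to 462 without 1 library, 483 in DESeq2 and 594 with the replicate block), oligodendrocyte-like nuclei (1323 genes, against 789 to 800 without 1 library, 800 in DESeq2 and 519 with the replicate block), OPC-like nuclei (329 genes, against 185 without 1 library, 90 in DESeq2 and 198 with the replicate block), astrocyte-like nuclei (330 genes, against 159 to 197 without 1 library, 117 in DESeq2 and 132 with the replicate block), microglia-like nuclei (425 genes, against 154 to 824 without 1 library, 141 in DESeq2, 755 without the filter and 205 with the replicate block). The ranges over all genes without 1 library hold only the left-out libraries that moved the count by that much. In claustrum-like, inhibitory and striatal nuclei these were the libraries of the 17-month animal alone. In OPC-like nuclei it was library 3 of the 18-month animal alone, and only in microglia-like nuclei was it every library. With fewer libraries a fit has fewer samples. Otherwise the cause was not tested.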

Other observations

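A cluster of 23 nuclei (cluster 28, 507324 UMIs over all libraries), too small to be named or tested, stood out for its phosphodiesterases and was singled out after its values were seen. PDE1C was at 6989.6 CPM (6761 to 7224, exact Poisson 95% interval), above its mean in each of the 24 classes described, the highest of which was SST-like at 696 ± 78.5 CPM (SD, n = 5). PDE3A was at 1571 CPM (1464 to 1684, exact Poisson 95% interval), where the highest class was mural-like at 843 ± 423 CPM (SD, n = 4). PDE10A was at 148 CPM (116 to 185, exact Poisson 95% interval), PDE4D at 540.1 CPM (478 to 608, exact Poisson 95% interval) and PDE4B at 408 CPM (354 to 468, exact Poisson 95% interval), and PDE4C had 3 counts. The genes that led the cluster included SLC5A7, the high-affinity choline transporter, at 428 CPM (373 to 489, exact Poisson 95% interval), LHX8, a transcription factor of forebrain cholinergic neurons, at 215 CPM (176 to 259, exact Poisson 95% interval), and CHAT, the enzyme that makes acetylcholine, at 154 CPM (122 to 192, exact Poisson 95% interval). SLC18A3, the vesicular acetylcholine transporter, had 0 counts, which allows up to 7.27 CPM by the same interval. GAD1 was at 152 CPM (119.8 to 189.7, exact Poisson 95% interval). The intervals cover counting error only and say nothing of the spread between animals.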
